A study of Mus musculus with 12 samples.

Results

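The genes described here are 10 genes of stratified squamous epithelium in mouse lung RNA: the keratins Krt4, Krt13, Krt5, Krt14, Krt15 and Krt6a, the envelope genes Sprr1a and Sprr3, the cadherin gene Dsg3 and the transcription factor gene Trp63. They were chosen by measured values, since the Krt4 level had been seen to differ widely between these same arrays, so the levels and differences below are a description and support nothing further. By the platform annotation, 9 of the 10 genes had a probe set among the 18193 genes with one, and 8 passed a filter on low values that left 11602 genes for testing. For Dsg3 no probe set was listed in the annotation table used, and it was not analysed here. Where a gene had several probe sets, the one with the highest mean over the 12 arrays stood for it.

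The study measured lung total RNA from wild-type mice on 12 Affymetrix arrays, in 4 labelled groups of 3. The combined group received simvastatin at 10 mg/kg by intraperitoneal injection 3 times a week, before and after 25 Gy of radiation, and its lungs were taken 6 weeks after the radiation. The radiation group received the 25 Gy alone, the simvastatin group the drug alone for up to 6 weeks, and the control group vehicle. Simvastatin inhibits HMG-CoA reductase, an enzyme of cholesterol synthesis. Strain and sex are not given in the labels. The description field of all 12 arrays names a control animal, against the titles and treatment labels, and the groups here follow the titles. Control animals are listed at 8 to 10 weeks of age and the other groups at 8 to 12 weeks, so age and treatment cannot be told apart in comparisons with control. The labels do not say whether each array is a different animal. A p-value below therefore covers the spread between these samples, which may be technical.

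Some arrays stood apart. Simvastatin 1, simvastatin 3 and combined 3 were near-identical: the SD of their pairwise log2 differences over 10342 probe sets was 0.111 to 0.118, against at least 0.336 for every other pair of the 66. Simvastatin 1 and 3 were therefore averaged and counted as 1 sample, which gave 11 samples. Combined 3 was kept as a sample of the combined group. Combined minus simvastatin and the interaction therefore set near-identical arrays against each other, and the 11 samples may not all be independent. Cdkn1a, a p53 target that rises after irradiation, went against the labels of combined 3 (11.2), simvastatin 2 (13.4) and control 3 (13.0). It stood at 13.1 to 13.4 on the other irradiated arrays and at 10.2 to 11.1 on the other unirradiated ones. These arrays are called by their labels throughout, and the group means, group orders, differences and counts of separated genes are also given without them. Lung markers were present on every array, with Sftpc, a surfactant gene of alveolar type II cells, at 15.6 to 15.8.

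Stratified squamous epithelium lines the oesophagus and mouth and covers the skin. Its basal cells, which rest on the basement membrane and divide, carry the keratin pair Krt5 and Krt14 under the transcription factor p63. As cells move upward they exchange these keratins for others (Krt4 and Krt13 in the oesophagus and mouth) and lay down a cornified envelope from small proline-rich proteins, while desmosomes hold the layers together. In the mouse airway, Krt5, Krt14, Krt15 and Trp63 also mark basal cells of the trachea and large bronchi.

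The start regions of 4 genes are printed here, for 1 basal keratin, 1 suprabasal keratin and both envelope genes, since these are the layers whose genes differed in pattern. They are RefSeq windows of the GRCm38.p6 build, running from 250 bases before to 50 bases after each gene's outermost start, all on the minus strand. Capitals mark TGAGTCA (the AP-1 motif), TATAAA (a core promoter motif) or a p53 family motif, each searched on both strands.
Krt5, chr15:101712856-101713155: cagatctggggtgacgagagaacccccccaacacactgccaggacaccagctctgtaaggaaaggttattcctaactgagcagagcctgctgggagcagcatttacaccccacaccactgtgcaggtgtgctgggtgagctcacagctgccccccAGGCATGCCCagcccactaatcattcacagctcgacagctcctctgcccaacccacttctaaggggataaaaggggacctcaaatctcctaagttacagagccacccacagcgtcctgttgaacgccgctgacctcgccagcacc
Krt13, chr11:100121517-100121816: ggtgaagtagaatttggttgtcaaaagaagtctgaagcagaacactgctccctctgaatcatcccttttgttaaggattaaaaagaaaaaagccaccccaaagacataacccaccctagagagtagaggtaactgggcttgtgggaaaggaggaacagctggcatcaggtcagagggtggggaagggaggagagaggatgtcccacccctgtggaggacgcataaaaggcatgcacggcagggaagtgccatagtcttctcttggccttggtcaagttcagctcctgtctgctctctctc
Sprr1a, chr3:92485832-92486131: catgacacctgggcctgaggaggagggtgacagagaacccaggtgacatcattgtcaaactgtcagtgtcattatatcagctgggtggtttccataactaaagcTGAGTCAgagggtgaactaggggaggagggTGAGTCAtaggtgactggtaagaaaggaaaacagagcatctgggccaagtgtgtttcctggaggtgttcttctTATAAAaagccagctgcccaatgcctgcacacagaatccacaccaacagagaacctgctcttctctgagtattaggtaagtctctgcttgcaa
Sprr3, chr3:92458671-92458970: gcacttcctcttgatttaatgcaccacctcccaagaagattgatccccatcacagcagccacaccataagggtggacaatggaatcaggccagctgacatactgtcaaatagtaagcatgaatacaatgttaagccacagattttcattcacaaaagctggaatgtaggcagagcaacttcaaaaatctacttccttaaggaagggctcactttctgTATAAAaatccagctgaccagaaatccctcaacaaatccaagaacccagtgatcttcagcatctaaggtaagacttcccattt

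In these windows Sprr1a held TGAGTCA at -146 and -116 from its start, and TATAAA at -43. For Sprr3 only TATAAA was found, at -33. The Krt5 window held 1 p53 family motif at -95, and the Krt13 window held none of the 3 motifs. The motif CACCC, read by Klf and Sp factors, had 4 matches each in the Krt5, Krt13 and Sprr1a windows and 1 in that of Sprr3. The Sprr1a match at -119 overlaps the AP-1 motif at -116. A window at another Krt13 start, not printed, held the AP-1 motif at -183 and -34. Of 32841 RefSeq windows of the same length, 5.20% held the AP-1 motif, 13.6% the core promoter motif, 57.5% the Klf and Sp motif and 8.36% the p53 family motif. Windows were found for 5 of the 10 genes. A match of letters is a description, and no binding was measured here.

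All levels below are log2 intensities as deposited, and levels of different genes are not set against each other because probe sets differ in brightness. The median of all values, 4.85, is used as a mark of low signal. Values below about 3 lay near the array background and have no order among themselves.

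Krt5, the basal type II keratin, stood at 11.93, 11.34 and 5.28 in combined 1, 2 and 3, at 9.28, 6.40 and 5.27 in radiation 1, 2 and 3, at 5.28, 5.27 and 5.64 in simvastatin 1, 2 and 3, and at 11.20, 9.57 and 7.05 in control 1, 2 and 3. Krt14, its type I partner, stood at 10.20, 9.06 and 2.95 in the combined arrays, at 7.46, 3.16 and 2.91 in the radiation arrays, at 2.39, 2.44 and 2.46 in the simvastatin arrays, and at 8.70, 7.17 and 4.48 in the control arrays. The same 5 arrays, combined 1 and 2, radiation 1 and control 1 and 2, held the highest values of both genes. The other arrays labelled as irradiated were at 6.40 or below for Krt5 and at 3.16 or below for Krt14. By label, each irradiated group thus held high and low arrays together. The low array of the combined group was combined 3, near-identical to simvastatin 1 and 3 and with Cdkn1a against its label. For Krt14 the set of high arrays depended on the probe set. A further one read only 3.17 on radiation 1 and 3.14 on control 2, against 6.40 to 8.73 on control 1 and combined 1 and 2. Another read 2.01 to 2.10 on all arrays.

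Krt15, another type I keratin of basal cells, stood at 10.66, 10.22 and 4.20 in the combined arrays, at 6.73, 7.22 and 3.73 in the radiation arrays, at 4.20, 3.71 and 4.05 in the simvastatin arrays, and at 9.62, 8.50 and 5.55 in the control arrays. It departed from Krt14 on radiation 2, where Krt15 was above the median of all values and Krt14 was not. Trp63, which encodes p63 and is needed for the basal layer of stratified epithelia, stood at 7.79, 6.87 and 2.96 in the combined arrays, at 5.34, 3.19 and 2.69 in the radiation arrays, at 3.04, 2.72 and 2.91 in the simvastatin arrays, and at 8.69, 6.03 and 3.11 in the control arrays. Its high arrays were those of Krt14, and the other arrays were all near background. For Trp63 this pattern was seen only with the probe set that stood for the gene. Its other probe sets stayed near background on all arrays, at 2.55 to 2.71, 2.70 to 2.86 and 2.24 to 2.71.

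Krt4, the type II keratin of the upper layers of oesophagus and mouth, stood at 13.77, 15.50 and 2.77 in the combined arrays, at 13.05, 3.07 and 2.75 in the radiation arrays, at 2.80, 2.70 and 2.83 in the simvastatin arrays, and at 15.19, 15.18 and 8.17 in the control arrays. Krt13, its type I partner, stood at 12.67, 15.11 and 3.06 in the combined arrays, at 11.99, 3.20 and 3.04 in the radiation arrays, at 3.05, 2.39 and 3.07 in the simvastatin arrays, and at 14.76, 14.91 and 6.57 in the control arrays. The values were close to all or none: 5 arrays lay at 11.99 or above for both genes, 6 lay at or below 3.20, and control 3 lay between. Control 3 was intermediate only with these probe sets. The other probe set for Krt4 read 2.58 there, and the other probe sets for Krt13 read 2.34 and 2.74, although all 3 were at 10.3 or more on control 1 and 2.

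**Figure D1:**
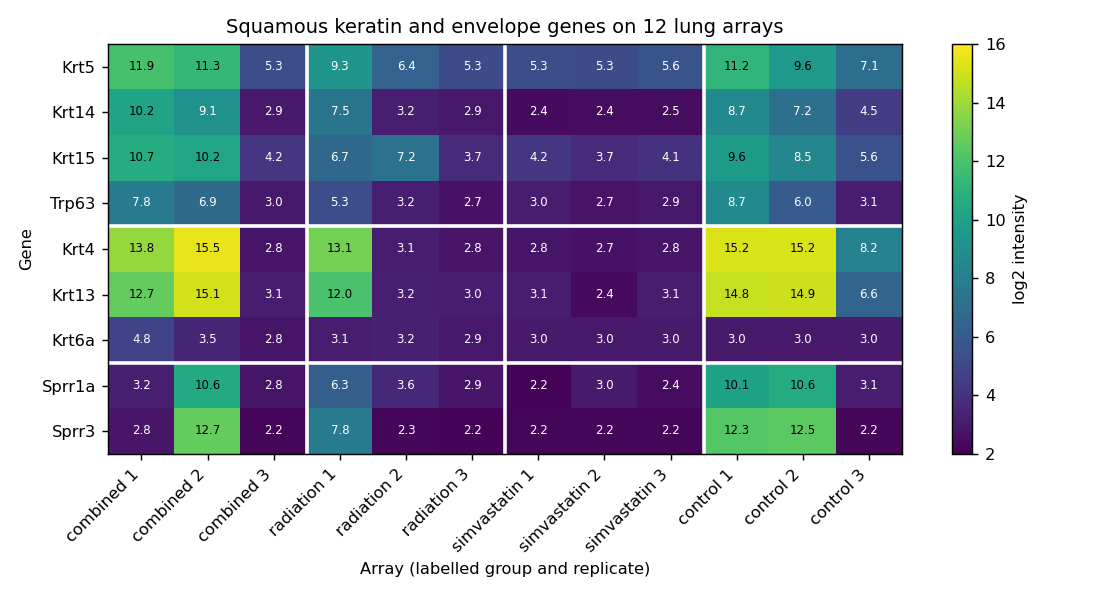
Log2 intensity of the 9 measured genes (rows, with basal genes at the top, then Krt4, Krt13 and Krt6a, then the envelope genes) on each of the 12 arrays (columns). Bright cells mark high values; Krt4 exceeds 13 on combined 1, combined 2, radiation 1, control 1 and control 2, whereas Sprr3 on combined 1 is at 2.82.

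Krt6a, a keratin of wounded and hyperproliferative squamous epithelium, never passed the low-value mark with the probe set that stood for it. It read 4.80, 3.52 and 2.81 in the combined arrays, 3.06, 3.21 and 2.90 in the radiation arrays, 3.01, 2.96 and 3.02 in the simvastatin arrays, and 3.02, 2.98 and 3.03 in the control arrays. Only combined 1 and combined 2 stood above the rest. Krt6a and Krt6b are near-identical copies, so probe sets may not separate them. The Krt6b probe set read 1.81 to 1.93 on all arrays.

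Sprr3, a small proline-rich envelope protein of the oesophagus and mouth, stood at 2.82, 12.69 and 2.18 in the combined arrays, at 7.78, 2.26 and 2.16 in the radiation arrays, at 2.20, 2.17 and 2.21 in the simvastatin arrays, and at 12.32, 12.50 and 2.17 in the control arrays. Sprr1a, an envelope precursor that is also induced by stress, stood at 3.18, 10.57 and 2.79 in the combined arrays, at 6.26, 3.59 and 2.86 in the radiation arrays, at 2.15, 3.02 and 2.45 in the simvastatin arrays, and at 10.11, 10.62 and 3.12 in the control arrays. Both were high on combined 2, control 1 and control 2 and lower on radiation 1. Both were near background on combined 1, the array with the highest Krt5, Krt14 and Krt15.

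Combined 1 therefore held high basal keratins with almost no Sprr signal. Against combined 2, it was higher for Krt5 by 0.59, Krt14 by 1.14, Krt15 by 0.44 and Trp63 by 0.92. The suprabasal and envelope genes ran the other way, with differences of -1.73 for Krt4, -2.44 for Krt13, -7.39 for Sprr1a and -9.87 for Sprr3. Against radiation 1, combined 1 was higher for Krt5 by 2.65, Krt14 by 2.74, Krt15 by 3.94 and Trp63 by 2.45. Krt4 and Krt13 were then within 1 log2 unit (0.72 and 0.68), while Sprr1a and Sprr3 still differed by -3.08 and -4.95. These are differences between single arrays, with no replicate check.

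The same array differed in a wider set of genes of the upper layers. Genes from 6 lists of squamous genes were read alongside, namely other squamous keratins, cornified envelope, desmosome, squamous transcription factors, hemidesmosome and basement membrane, and squamous surface proteins and proteases. Together with the genes above, 43 list genes with a range over 4 log2 units were above the low-value mark on combined 2, control 1 and control 2. Of these, 13 were not above it on combined 1: Sprr1a, Sprr3, Lce3b, Lce3c, Csta1, Dsg1a, Dsg1b, Dsc1, Lypd3, Serpinb3a, Serpinb11, Tmprss11a and Il1f6. On radiation 1, 10 were not above it, and 7 were on neither array. The 13 were picked out after their values were seen.

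In the cornified envelope list, 13 of 13 wide-range genes were lower on combined 1 than on combined 2, with a median difference of -3.32. Against radiation 1, 9 of the 13 were lower on combined 1, with a median of -0.30. Dsc1, a desmosomal cadherin of upper layers, differed by -7.92 between combined 1 and combined 2, whereas Dsc3, a desmosomal cadherin of lower layers, differed by -0.61. Col17a1, the collagen that anchors basal cells at the hemidesmosome, was at 9.01 on combined 1, 8.42 on combined 2, 4.86 on radiation 1 and 7.45 on control 2.

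**Figure D2:**
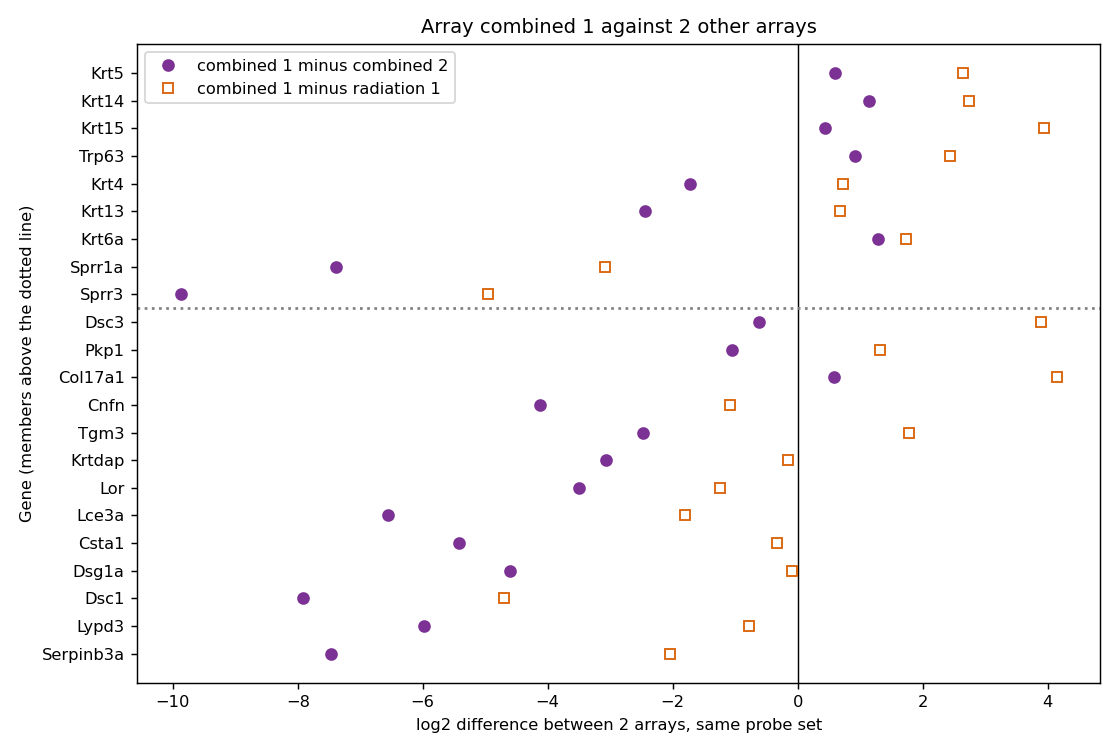
Difference in log2 intensity between array combined 1 and array combined 2 (filled circles) and between combined 1 and radiation 1 (open squares) for each gene, same probe set. Krt5, Krt14, Krt15 (0.44 and 3.94) and Trp63 lie right of 0, and Sprr3 (-9.87 and -4.95) and Dsc1 lie far to the left. Dsc3, of lower layers, lies on both sides (-0.61 and 3.89). Genes under the dotted line were chosen after their values were seen.

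Group means came with a wide spread. Krt4 averaged 10.7 ± 6.91 in the combined group (SD, n = 3), 6.29 ± 5.86 in the radiation group (n = 3), 2.76 ± 0.079 in the simvastatin group (n = 2) and 12.8 ± 4.05 in the control group (n = 3). Krt5 averaged 9.52 ± 3.68 in the combined group (SD, n = 3), 6.98 ± 2.07 in the radiation group (n = 3), 5.37 ± 0.13 in the simvastatin group (n = 2) and 9.27 ± 2.09 in the control group (n = 3). Sprr3 averaged 5.90 ± 5.89 in the combined group (SD, n = 3), 4.07 ± 3.22 in the radiation group (n = 3), 2.19 ± 0.024 in the simvastatin group (n = 2) and 8.99 ± 5.91 in the control group (n = 3). Without combined 3, simvastatin 2 and control 3, Krt4 averaged 14.6 ± 1.22 in the combined group (n = 2) and 15.2 ± 0.0015 in the control group (n = 2). Krt5 then averaged 11.6 ± 0.42 in the combined group and 10.4 ± 1.15 in the control group, and Sprr3 7.76 ± 6.98 in the combined group and 12.4 ± 0.13 in the control group (n = 2 each). The radiation group is not affected, and the simvastatin group then holds 1 sample.

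By mean, 5 genes (Krt4, Krt13, Sprr1a, Sprr3 and Trp63) were ordered control, combined, radiation, simvastatin from high to low. Krt5, Krt14 and Krt15 had combined above control, with radiation and simvastatin in the same places. Krt6a had combined highest, then radiation, control and simvastatin, all near background. Neighbours in these orders differed by less than the larger of their SDs, except control over radiation for Krt5 and radiation over simvastatin for Krt15. Without combined 3, simvastatin 2 and control 3 the orders were the same, except that simvastatin stood above control for Krt6a.

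**Figure D3:**
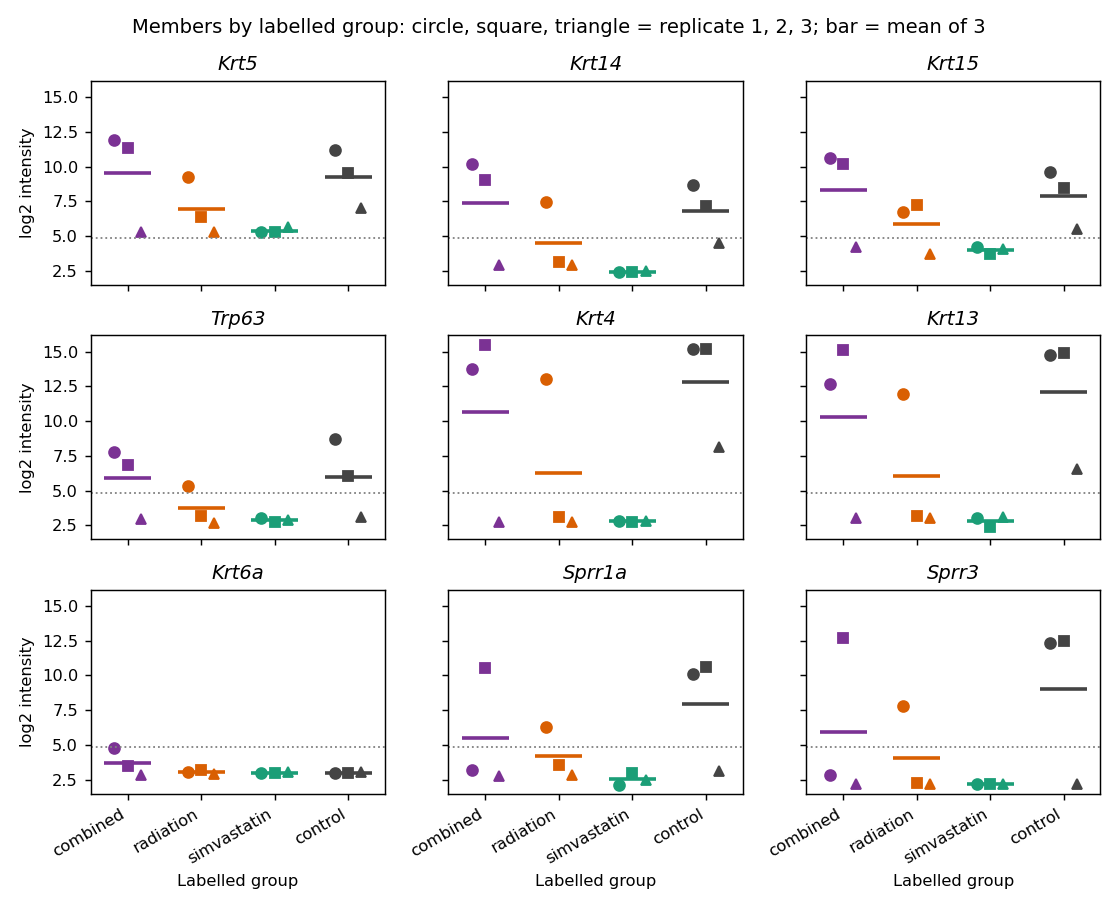
Log2 intensity of each of the 9 genes by labelled group. Points are arrays (circle, square and triangle for replicates 1, 2 and 3), bars the mean of 3 arrays, and the dotted line the median of all values, 4.85; combined, radiation and control arrays spread over most of the axis for Krt4 and Krt13, and the 3 simvastatin arrays lie together.

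No gene passed in any comparison of the groups. In limma's moderated test over the 11 samples, with p adjusted by Benjamini-Hochberg over 11602 genes and a threshold of 0.05, 0% of genes passed for radiation minus control, combined minus control, simvastatin minus control, combined minus radiation, combined minus simvastatin and the interaction of radiation with simvastatin. Accordingly 0 of the 8 genes tested passed. At an unadjusted p under 0.05, the counts over all genes were 600, 327, 214, 518, 153 and 377 in that order of comparisons, and those of the 8 genes were 0, 0, 2, 0, 2 and 6. Combined, radiation and simvastatin were each set against the same 3 control arrays, so these comparisons share samples.

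For combined minus control the 8 differences ran from -3.10 to 0.62 on the log2 scale, with 3 above 0 (Krt5, Krt14 and Krt15) and 5 below. For radiation minus control all 8 lay below 0, from -6.55 (Krt4) to -2.00 (Krt15), with limma standard errors of 1.53 to 3.70 and adjusted p of 0.751 to 0.764. For simvastatin minus control all 8 lay below 0, from -10.1 (Krt4) to -3.10 (Trp63), with an adjusted p from limma of 0.990. The median over the 9 measured genes was -0.07 for combined minus control, -2.29 for radiation minus control and -4.35 for simvastatin minus control, beside medians of 0.0039, 0.084 and -0.0024 over all genes tested. Krt6a, one of the 9, was near background and was not tested. Over the 8 genes tested the medians were -0.94, -3.00 and -4.82 in the same order.

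Combined minus radiation was above 0 for all 8, from 1.28 to 4.39, with adjusted p of 0.835 to 0.925 in limma, and combined minus simvastatin was above 0 for all 8, from 2.86 to 7.92. The interaction, which asks whether the difference after radiation depends on simvastatin, ran from 5.23 to 14.5 on the log2 scale with an adjusted p from limma of 0.882. The medians over the 9 genes were 2.47, 4.15 and 6.57 in that order (2.50, 4.30 and 6.90 over the 8 tested), beside -0.092, -0.0046 and -0.088 over all genes. Without control 3, combined 3 and simvastatin 2 the 9-gene median was -0.03 for combined minus control, -3.62 for radiation minus control, -5.51 for simvastatin minus control, 4.55 for combined minus radiation, 6.17 for combined minus simvastatin and 10.6 for the interaction. Leaving out control 3, combined 3 and simvastatin 2 left 0 of the 8 genes past the threshold in all 6 comparisons.

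**Figure D4:**
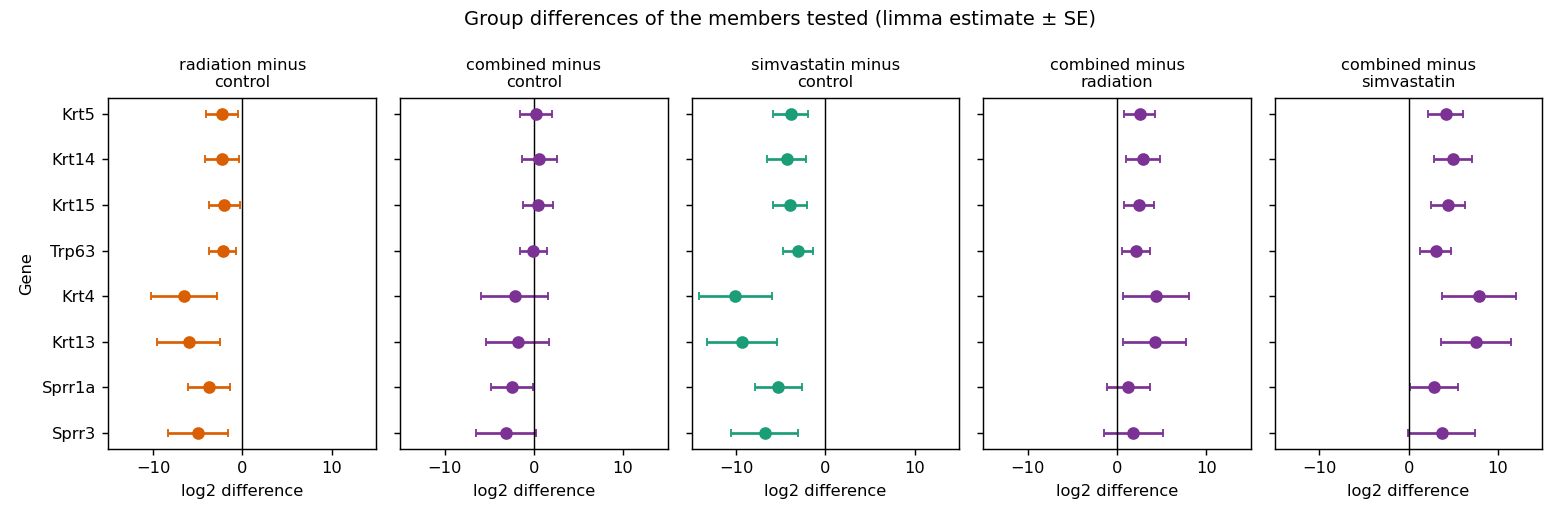
Limma estimates of the log2 difference (points) with standard errors (bars) for the 8 genes tested, in 5 comparisons of the labelled groups. All radiation minus control and simvastatin minus control estimates lie left of 0, and the combined minus control estimates lie on both sides; no estimate passed the adjusted threshold.

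The simvastatin arrays lay wholly below the control arrays for 7 of the 9 genes: Krt4, Krt13, Krt5, Krt14, Krt15, Sprr1a and Trp63. Over all genes tested, 6.38% were lower with no overlap in that comparison. For Sprr1a the nearest arrays were at 3.02 in simvastatin and 3.12 in control, and for Trp63 at 3.04 and 3.11, so at background level. With their other probe sets, control 3 was also near background for Krt4 (2.58), Krt13 (2.34 and 2.74) and Krt14 (1.83 and 2.04). For Krt14, simvastatin 3 then read higher than control 3 (1.84 and 2.06), so the groups overlapped. The combined arrays lay wholly above the simvastatin arrays for Krt14 and Krt15, 2 of the 9, against 5.01% of all genes. Both rest on combined 3, an array near-identical to simvastatin 1 and 3. The lowest combined value of Krt14 was 2.95 against 2.46 at most in simvastatin, a level at which values have no order, and that of Krt15 was 4.202 against 4.198. In the other 3 comparisons of groups, no gene of the 9 separated them.

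Without combined 3, simvastatin 2 and control 3, the smaller groups separated more often, for all genes as for these. Combined was then wholly above control for Krt5, Krt14, Krt15 and Krt6a, 4 of the 9, against 24.3% of all genes. Radiation was wholly below control for 7 of the 9, all but Krt14 and Krt6a, against 9.14% of all genes. Simvastatin was wholly below control for 8 of the 9, all but Krt6a, against 22.3%. Combined was wholly above radiation for 7 of the 9, all but Sprr1a and Sprr3, against 11.1%, and wholly above simvastatin for 9 of the 9, against 30.8%. Simvastatin then held only the near-identical arrays 1 and 3, and some gaps were at background level. Sprr3 was at 2.82 on combined 1 against 2.21 at most in simvastatin, and Sprr1a at 3.18 against 2.45. For Krt6a all values lay under the low-value mark with the probe set used. The 9 genes were chosen by these levels, so nothing is read from the counts.

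The other squamous genes moved over arrays in part. Of 117 genes in the 6 lists, 104 were measured and 72 tested, and 0 rose and 0 fell in each of the 6 comparisons by limma. At an unadjusted limma p under 0.05 the counts were 5, 2, 9, 1, 6 and 18 of the 72. Those of all 11602 genes tested were 600, 327, 214, 518, 153 and 377. The order is radiation minus control, combined minus control, simvastatin minus control, combined minus radiation, combined minus simvastatin and the interaction. The range from lowest to highest array was over 4 log2 units for 37 of the 104 (35.6%), and for 3.33% of all 18193 genes. By list these were 13 of 26 envelope genes, 6 of 12 desmosome genes, 14 of 32 surface and protease genes, 2 of 10 other keratins, 1 of 16 transcription factors and 1 of 8 hemidesmosome and basement membrane genes.

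In the envelope list the largest ranges were those of Krtdap (2.27 to 14.2), a keratinocyte differentiation-associated protein, and of the late cornified envelope genes Lce3f (1.75 to 13.3) and Lce3a (2.07 to 13.1). Ivl, which encodes the envelope precursor involucrin, stayed at 2.66 to 3.13, and Sprr2d at 1.84 to 1.92. Among desmosome genes, Dsc1 (2.33 to 10.7), Pkp1 (1.86 to 8.50), a plaque protein of stratified epithelia, and Dsc2 (4.32 to 10.9) had the largest ranges. Dsp, Jup and Dsg2, which simple epithelia also use, had ranges of at most 1.67 log2 units.

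Of the transcription factors, Pax9, a factor of oesophageal and oral epithelium, ran from 2.74 to 7.89, followed by Grhl3 (1.98 to 5.61) and Pitx1 (2.26 to 5.51). Both of these were above the low-value mark only on combined 2. The surface and protease list was led by the protease inhibitors Serpinb12 (2.54 to 13.2), Serpinb3a (3.65 to 11.2) and Serpinb2 (2.23 to 9.38). At the hemidesmosome, Col17a1 (2.77 to 9.01) was followed by the integrins Itgb4 (3.47 to 5.95) and Itga3 (9.02 to 11.2).

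Most keratins were not part of the pattern. Of 48 keratin genes measured, 24 were on chromosome 11 and 24 on chromosome 15, where the keratin clusters lie. With the probe set that stood for each gene, 31 were never above the low-value mark and 9 were above it on all 12 arrays. A range over 4 log2 units was found for 8: Krt13, Krt14, Krt15, Krt17 and Krt32 on chromosome 11, and Krt4, Krt5 and Krt78 on chromosome 15. Krt17 was raised on a single array, control 1, at 7.22. The simple epithelial keratins Krt7, Krt8, Krt18 and Krt19, carried by lung epithelium, ranged by at most 1.83.

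Neighbours on the chromosome were not all alike. Krt76, the next gene to Krt4, stayed at 2.01 to 2.13, and Krt79 on its other side ran from 4.43 to 7.40. On chromosome 3 the stretch of envelope genes that holds Sprr1a and Sprr3, the epidermal differentiation complex, had 51 genes, of which 36 were measured, 20 had a range over 4 and 14 were never above the low-value mark. All 20 wide-range genes were lower on combined 1 than on combined 2, and 9 of the 20 were lower on combined 1 than on radiation 1.

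**Figure D5:**
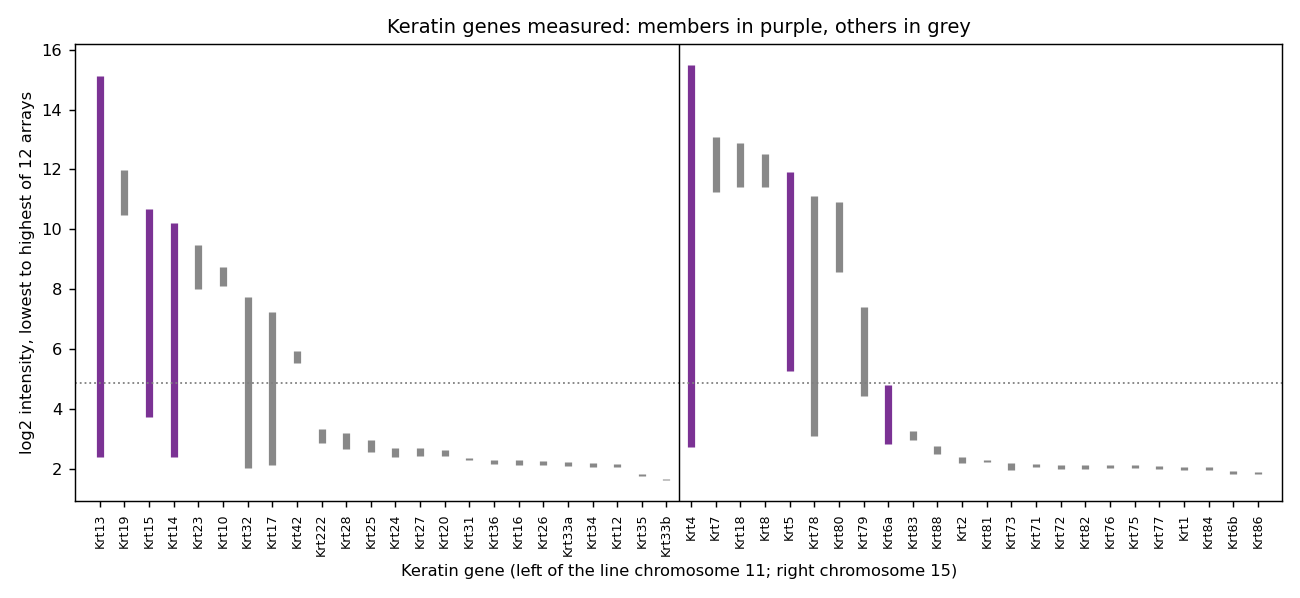
Range of log2 intensity, from the lowest to the highest of 12 arrays, for 48 keratin genes, with genes on chromosome 11 left of the line and genes on chromosome 15 right of it. Purple bars are the genes described here, the dotted line is 4.85, and most bars are short and lie under it.

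Most keratins of skin and hair were near background on every array. Of 7 measured markers of oesophagus and oral lining, 4 had a range over 4. With the probe sets that stood for them, Krt24, Krt6a and Krt76 were never above the low-value mark. Another Krt6a probe set was above that mark on combined 1, at 7.02. In the cornified skin list Krt1, Krt2 and Krt77 were never above that mark, Krt10 was at 8.11 to 8.75 on all arrays, Flg was above it only on combined 2 (5.20), and Lor, an envelope protein, reached 13.0 on combined 2 and 12.9 on control 1. Of 6 hair markers, 5 were never above it. Among airway and squamous basal markers, Ngfr was never above it. These lists do not hold all such genes. Krt32, outside them, ran from 2.03 to 7.73. In the epidermal differentiation complex, 20 of 36 measured genes had a range over 4 and 14 were never above the low-value mark. Of the 20, Hrnr read 9.49, 9.97 and 9.68 on control 1, control 2 and combined 2, and Lce1c 11.5, 12.0 and 12.1. The tissue that gave this signal was not tested. In bulk RNA, fewer cells of a type and less RNA per cell cannot be told apart.

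The genes whose pattern was most like the mean of the 9 were ranked by the SD, over 12 arrays, of the gene minus that mean, whose median over 11594 other genes was 3.23. The closest 10 were Fam25c (0.37), Psapl1 (0.45), Pkp1 (0.53), Lgals7 (0.59), Tgm3 (0.67), Krt78 (0.69), Them5 (0.75), 2310011E23Rik (0.80), Lor (0.86) and Ada (0.92). Lgals7 encodes galectin-7 of stratified epithelia, Tgm3 a transglutaminase that cross-links the envelope, and Ada adenosine deaminase, which is abundant in the lining of the mouse upper digestive tract. Among keratins the closest were Krt78, Krt32 (1.31) and Krt23 (3.03), the last near the median of all genes.

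Markers of other tissues around the airways also differed between the arrays, as log2 of their summed intensity. Of the skeletal muscle list, 6 of 6 genes had a range over 4, and its sum ran from 8.56 to 15.8 in the combined group, 8.10 to 14.8 in the radiation group, 7.26 to 8.80 in the simvastatin group and 13.8 to 15.2 in the control group. The muscle actin Acta1 was at 14.90, 14.61 and 4.90 in the combined arrays, 13.90, 12.79 and 5.39 in the radiation arrays, 4.43, 3.81 and 6.03 in the simvastatin arrays, and 14.35, 14.26 and 13.06 in the control arrays. Muscle signal was thus high on all 5 arrays with high Krt4, and also on radiation 2, where Krt4 was at 3.07, and on control 3. Its part in the squamous levels was not tested.

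Of the brown fat list, 4 of 5 genes had a range over 4, with sums of 10.2 to 14.4 in the combined group, 9.91 to 11.7 in the radiation group, 9.36 to 10.2 in the simvastatin group and 9.63 to 14.4 in the control group. The lowest control value was on control 2, an array with high Krt4. Of the thymocyte list, 5 of 5 had a range over 4, with sums of 4.93 to 11.7, 4.95 to 5.20, 4.95 to 5.87 and 4.94 to 15.2 in the combined, radiation, simvastatin and control groups. The high sums were those of combined 1 (11.7) and control 1 (15.2). Rag1, the recombinase gene of developing lymphocytes, was at 11.05 on combined 1 and 14.42 on control 1, and at most at 2.33 on the other arrays.

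Thymic epithelium, which also carries Krt5, Krt14 and Trp63, had 2 of 4 markers with a range over 4. Its sum was 4.91 to 9.53 in the combined group, 5.15 to 5.79 in the radiation group, 4.88 to 5.09 in the simvastatin group and 4.82 to 13.5 in the control group. Its defining markers Foxn1 and Aire were never above the low-value mark, although Foxn1 was at 4.12 and Aire at 3.26 on control 1, their highest arrays. Ccl25, a thymic chemokine, was at 9.46 on combined 1 and 13.36 on control 1, and at 3.90 to 5.36 on the other arrays. Psmb11, the thymoproteasome subunit, was at 4.75 on combined 1 and 9.82 on control 1, and at most at 2.46 elsewhere. Combined 1, with the highest Krt5, Krt14 and Krt15 and almost no Sprr signal, also carried thymocyte signal and Ccl25. Control 1 held more of both, and there Sprr1a was at 10.11 and Sprr3 at 12.32. Thyroid and parathyroid markers Tg, Pax8 and Pth were never above the low-value mark. The part of brown fat, thymus and thymic epithelium in the squamous levels was not tested.

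Markers of the lung itself moved less. No gene of the airway secretory, ciliated, smooth muscle, simple epithelium, alveolar type I, alveolar type II or endothelium lists had a range over 4. A range over 2 was found for 2 of 4 airway secretory, 3 of 4 ciliated and 3 of 4 smooth muscle genes. It was found for 1 of 3 alveolar type I genes and for 16.1% of all 18193 genes. The secretory gene Bpifa1 read 3.84 higher on control 1 than on control 2, which the sum of its list does not show. The airway secretory sum was 17.0 to 17.2 in the combined group, 16.8 to 16.9 in the radiation group, 16.8 to 17.2 in the simvastatin group and 16.7 to 17.0 in the control group. The ciliated sum was 11.02 to 11.8 in the combined group, 11.1 to 11.6 in the radiation group, 10.8 to 11.8 in the simvastatin group and 9.49 to 11.5 in the control group, lowest on control 1.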

How the data were processed

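RNA was measured on 12 arrays. The table as deposited holds log2 intensities for 45101 probe sets, and the submitters' processing notes name MAS5 and GCRMA. No version of either is given in the sources used here. Array medians lay between 4.41 and 5.12, and the number of arrays limits the precision. Probe sets were named from the platform annotation: 34945 had 1 gene symbol, 932 had several and were not named, and 34741 were matched to RefSeq by Entrez number. Groups came from the titles, since the description field names a control animal on every array. One probe set per gene, that with the highest mean, was kept, and genes above the median of all values (4.85) on at least 3 arrays were tested.

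Differences were fitted with limma 3.58.1 in R 4.3.3 (lmFit, then eBayes with trend) over 4 groups and 11 samples, with 7 residual degrees of freedom. Tables and figures were made with Python 3.11.15, pandas 2.3.3, numpy 2.4.6 and matplotlib 3.10.9. The genes and lists were chosen with earlier results of these data known. Named are the genes described, the 3 genes of widest range in each list, the 10 genes and 3 keratins most alike in pattern, Cdkn1a and markers that bear on a result. The median difference covers 9 genes, since Dsg3 was not analysed. The alternatives were array centring, quantile normalization, no low filter, a floor at the lower quartile, the mean of a gene's probe sets, array weights, 12 arrays as 12 samples with and without the replicate number as a block, leaving out each array, and leaving out the 3 arrays whose Cdkn1a went against their labels.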

Additional observations from a re-analysis of the deposited data

Results flagged for a closer look

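Probe sets that did not stand for their gene gave signal on combined 1 above all control arrays. A further Krt14 probe set read 8.73, 7.44 and 1.79 in combined 1, 2 and 3, against 6.40, 3.14 and 1.83 in control 1, 2 and 3. It read 3.17, 1.87 and 1.78 in the radiation arrays. A further Krt6a probe set read 7.02, 4.82 and 2.08 in the combined arrays, 2.61, 2.16 and 2.11 in the radiation arrays, 2.12, 2.10 and 2.10 in the simvastatin arrays, and 2.16, 2.11 and 2.11 in the control arrays. With it, Krt6a was above the low-value mark on combined 1, whereas with the probe set that stood for the gene it was not. No replicate check exists for a single array.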

How the results depend on the processing

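Alternatives not named here gave 0 passing genes in all 6 comparisons. With limma array weights, 1241 genes passed for radiation minus control, 43 for combined minus control and 1172 for combined minus radiation, with 0 of the 8 squamous genes tested among them. These weights gave control 2 3.54 and control 1 0.159, and the cause was not tested. They moved the 9-gene median of combined minus control to 0.83 (-0.07 with equal weights). Of the 72 other squamous genes they called Krt79, Krt80, Dsg1a, Dsg2, Elf3, Anxa8, Il1f6 and Capns2 in radiation minus control, of which 4 fell (11.1% of the 72, beside 10.7% of all genes), and Dsc3, Pax9 and Capns2, all higher, in combined minus radiation (4.17%, beside 10.1%). Without control 3, combined 3 and simvastatin 2, 9 genes passed for radiation minus control and 2 (Cdkn1a and Eda2r) for combined minus control, and the 9-gene median of the interaction was 10.6 against 6.57. Those 3 arrays were picked by their Cdkn1a level, so the passing of Cdkn1a in both comparisons was set by that choice. The same holds for genes that vary with it, and nothing is read from these calls. Without control 3 alone, 1 gene (Aoc1) passed for radiation minus control, combined minus control and the interaction.

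Leaving out each array in turn, passing genes ran from 0 to 1 in those 3 comparisons and stayed at 0 in the others. The 9-gene median ran from -3.75 to -1.33 for radiation minus control, -5.50 to -3.39 for simvastatin minus control, 1.49 to 4.55 for combined minus radiation, 3.24 to 6.27 for combined minus simvastatin and 5.52 to 8.56 for the interaction. For combined minus control it ran from -1.49 without control 3 to 1.79 without combined 3, and 2 of the 12 changed its sign. Replicate numbers were not taken as pairs, since only 8 of 18 same-numbered pairs correlated over 0.1 (r from -0.26 to 0.41 across genes). The 3 pairs of combined and control all did (0.29 to 0.41), and 8 of 12 arrays correlated best with their own number, which is a hint of pairing from the data and not the design. With the replicate number as a block over 12 arrays, 0 genes passed in all 6 comparisons, and the 9-gene median was 6.69 for the interaction and 4.12 for combined minus simvastatin. Values near background limit what can be said of Krt6a.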
